A study of Mus musculus with 2 samples.

Results

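Collagen genes were examined in RNA from the mouse colon lamina propria, the connective tissue layer beneath the gut epithelium. They were taken by name, as every gene symbol of the form Col, number, a, number in the deposited expression table, and the transcript rows of each symbol were added. This gave 42 genes, carried by 142 transcript rows, of 27874 gene symbols in all. By the structure of their proteins, 10 belonged to the fibril-forming class, 8 to the fibril-associated collagens with interrupted triple helices (FACIT), 8 to the basement membrane class and 16 to other classes. Col2a1, Col9a1 and Col21a1 were not analysed here.

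Both samples came from C57BL/6J mice and differ in genotype, which is given as Control for one and as K14/hyal1 for the other. The second name joins the keratin 14 promoter, which drives transcription in the basal cells of skin epidermis, with Hyal1, a hyaluronidase that cuts the matrix sugar polymer hyaluronan. The promoter is thus known for activity in an epithelium other than that of the colon. The labels state no age, treatment, number of animals or pooling. Each genotype had 1 library, so there was no replicate, no test and no p-value, and every difference below is one between 2 libraries and not between genotypes. The title of the study places fibroblasts and hyaluronan between the inflamed epithelia of different organs, and collagens are main products of fibroblasts.

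Collagens are built from chains of the same or of different genes that wind into a triple helix, and each chain needs a glycine at regular spacing, in a glycine-X-Y repeat, to fit into the helix. Fibril-forming collagens make the tensile fibres of connective tissue, FACIT collagens sit on the surface of those fibres, and network-forming collagens underlie epithelia, vessels and muscle cells. In the gut wall, fibroblasts and smooth muscle cells are the main sources of fibrillar collagen, and endothelial, muscle and epithelial cells add type IV chains.

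Levels are given in CPM, reads scaled to a library total of 1000000. The step between low values put 1 read at 0.0164 CPM in Control and at 0.0345 CPM in K14/hyal1, which corresponds to scaled totals of 61105114 and 29020306 reads. The rows of the table held only part of these, an estimated 25446244 and 13812943 reads, or 416434 and 475975 CPM. At these depths a count of 0 allows up to 3 reads, 0.0491 and 0.103 CPM. Brackets give exact 95% intervals, which cover counting error alone and no spread between animals. They can be too narrow even for that error, because reads that carry no molecular identifier do not stand for independent molecules. Hyal1 itself was at 3.36 CPM in Control against 3.77 CPM in K14/hyal1, for a ratio of 1.12 (0.879 to 1.42). The libraries stood apart in salivary gland genes: Dcpp1, Dcpp2, Dcpp3, Muc19 and Ltf summed to 1409 CPM in Control against 0.0689 CPM in K14/hyal1. Epithelial markers summed to 2845 and 2988 CPM, so neither library was connective tissue alone. Differences are read on the log2(CPM + 1) scale, K14/hyal1 over Control, which understates those of low genes. The median of all 13561 genes past the filter on low values was 0.21 on that scale, and collagen differences are to be read against it.

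The repeat that defines the family can be read in the gene. In many vertebrate fibrillar collagen genes, exons of 54 bases encode 6 triplets that each begin with glycine. The first such exon is shown for 4 fibrillar genes because the main contrast of the data lies among them: Col1a1 was lower in the K14/hyal1 library, and Col1a2, Col3a1 and Col5a2 were higher. Capitals mark the glycine codons, and the bases are written 5′ to 3′ along the coding strand (GENCODE M21 annotation, GRCm38, which is mm10). The exons lie at chr11:94939904-94939957 on the plus strand (Col1a1, exon 8), chr6:4515481-4515534 on the plus strand (Col1a2, exon 8), chr1:45325360-45325413 on the plus strand (Col3a1, exon 6) and chr1:45434892-45434945 on the minus strand (Col5a2, exon 6).
Col1a1: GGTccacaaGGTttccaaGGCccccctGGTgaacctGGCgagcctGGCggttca
Col1a2: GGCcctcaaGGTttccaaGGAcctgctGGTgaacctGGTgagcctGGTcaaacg
Col3a1: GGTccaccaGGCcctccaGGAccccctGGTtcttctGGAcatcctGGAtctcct
Col5a2: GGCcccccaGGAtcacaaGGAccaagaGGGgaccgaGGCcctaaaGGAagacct
All 4 exons hold 6 glycine codons at the same spacing. Col1a1 had 21 coding exons of 54 bases among 51, Col1a2 24 of 52, Col3a1 24 of 51 and Col5a2 24 of 54. The longest unbroken run of glycine triplets was 338 in Col1a1 and 344 in Col3a1. Across the classes this run was 216 to 344 triplets in the fibrillar genes, 32 to 113 in the FACIT genes, 30 to 66 in the basement membrane genes and 23 to 87 in the others. The fibrillar genes did not overlap the rest, but the classes were drawn by protein structure, so this is not a separate result.

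Collagen RNA made up a larger share of the K14/hyal1 library. The 42 genes summed to 721 CPM in Control against 1438 CPM in K14/hyal1, for a ratio of 1.99 (1.97 to 2.02). With the median gene set to a ratio of 1 it was 1.70, with TMM scaling 1.75, and with library totals that leave out the 20 most abundant genes 1.78. Relative to the summed fibroblast markers described below it was 0.641, so the direction depends on the reference. In bulk tissue, fewer or more cells of a type and less or more RNA per cell cannot be told apart.

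Of the 42 collagens, 23 passed the filter, a mean of at least 2.31 CPM over both libraries. The lowest value among the 23 was 3.44 CPM in Control against 2.58 CPM in K14/hyal1, so each of them exceeded the filter in both libraries. At a threshold of 2-fold, 8 of them were higher in K14/hyal1 and 0 lower. The same threshold was passed by 3.75% of all 13561 genes in the higher direction and by 1.54% in the lower. At 1.5-fold the counts were 14 higher and 1 lower, beside 17.7% and 4.89% of all genes. Higher genes were 70.9% of all 2-fold differences, a share that was 46.5% with the median gene as reference, 51.4% with TMM scaling and 53.7% with totals that leave out the 20 most abundant genes. Under each of these scalings 6 collagens were at least 2-fold higher and 0 lower, Col5a3 and Col6a1 having dropped below the threshold. Of all 13561 genes, 301 were higher and 346 lower with the median gene as reference. These numbers were 329 and 311 with TMM scaling, and 342 and 295 with totals that leave out the 20 most abundant genes.

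The median log2 ratio of the 23 was 0.78, against 0.21 for all genes, and 17 of the 23 lay above the median gene. By counting error alone, the ratio interval lay above 1 for 17 genes and below 1 for 4, Col1a1, Col27a1, Col8a2 and Col10a1, and it held 1 for Col16a1 and Col4a6. These last 2 genes were also the ones whose sign changed with the scaling. The share of all genes with an interval above or below 1 is not given here, so the interval counts do not set collagens apart from other genes.

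**Figure D1:**
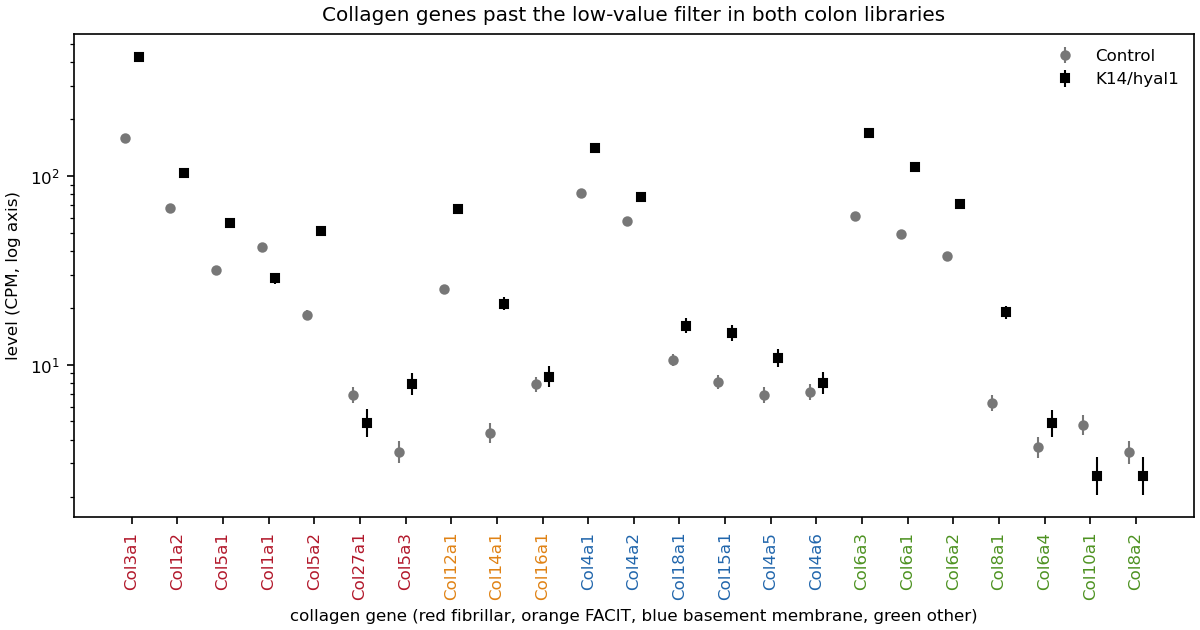
Level of each of the 23 collagen genes past the filter in the Control library (grey circles) and the K14/hyal1 library (black squares), in CPM on a log axis; bars are exact 95% Poisson intervals for counting error, often smaller than the symbol, and gene names are coloured by class. Col3a1 is the highest point in both libraries in CPM (158 and 425), and Col1a1, Col27a1, Col8a2 and Col10a1 are lower in K14/hyal1.

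The fibril-forming class summed to 332 CPM in Control against 679 CPM in K14/hyal1, for a ratio of 2.05 (2.01 to 2.09). Of its 10 genes 7 passed the filter, with a median log2 ratio of 0.79. At 2-fold, 3 were higher and 0 lower, beside 3.75% and 1.54% of all genes. Members of the class did not move together, and the widest gap was between the genes of its most abundant fibres.

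Col3a1, whose product forms type III fibres of chains of 1 kind in compliant tissues such as gut and vessel wall, was at 158 CPM in Control against 425 CPM in K14/hyal1. The ratio was 2.69 (2.61 to 2.76) and the log2 ratio 1.42. Per kb of transcript it was the highest collagen in both libraries, at 28.5 and 76.5 CPM per kb. The gene lies at chr1:45311538-45349706 on the plus strand, with the annotated gene Gm47302 overlapping it.

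Col1a1, the main chain of type I collagen, was at 42.0 CPM (40.4 to 43.6) in Control against 28.7 CPM (26.8 to 30.7) in K14/hyal1. It was 1.46-fold lower (1.35 to 1.58), a log2 ratio of -0.53, and lower under each of the 3 scalings. Col1a2, the partner chain of type I collagen, went the other way, from 67.8 CPM in Control to 103 CPM in K14/hyal1, for a ratio of 1.52 (1.45 to 1.59). Chains of type I collagen are assembled with more of the Col1a1 product than of the Col1a2 product. Per length of transcript, however, Col1a2 RNA exceeded Col1a1 RNA in both libraries, 1.79-fold in Control and 3.98-fold in K14/hyal1.

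Most of the Col1a1 level lay in 1 of its 4 transcript rows. That row was at 39.5 CPM in Control against 24.2 CPM in K14/hyal1, for a ratio of 0.612, and held 94.2% and 84.3% of the gene. The next row was higher in K14/hyal1, at 1.44 CPM in Control against 4.15 CPM in K14/hyal1. The rows carry no transcript identifier, so neither was assigned to an isoform. The leading row of Col3a1 was at 138 and 374 CPM, and that of Col1a2 at 60.3 and 89.2 CPM. In all 3 genes the leading row had the direction of the gene and at least 1 lesser row had the opposite one, such as a row of Col3a1 at 3.38 CPM in Control but 0.000155 CPM in K14/hyal1.

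Type V collagen, which starts fibrils and limits their width, was higher in all 3 of its chains in CPM and under the 3 scalings, and lower in all 3 relative to fibroblast markers. Col5a2 was at 18.4 CPM in Control against 50.9 CPM in K14/hyal1, for a ratio of 2.76 (2.55 to 2.99). Col5a1 was at 31.9 and 55.9 CPM, a ratio of 1.75 (1.64 to 1.87). Col5a3, the least abundant of the 3, was at 3.45 and 7.93 CPM, a ratio of 2.30 (1.90 to 2.78). Its log2 ratio of 1.003 was at the 2-fold threshold, and it was 0.41 with a pseudocount of 10. Col27a1, a fibrillar chain known from cartilage, was at 6.89 CPM in Control against 4.93 CPM in K14/hyal1, 1.40-fold lower (1.15 to 1.70).

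Ratios of 2 collagens within a library do not depend on how the libraries were scaled. Per length of transcript, Col3a1 was at 4.02 times the Col1a1 level in Control and at 15.8 times in K14/hyal1, so the proportion differed 3.93-fold between libraries (3.61 to 4.26; these intervals use the normal approximation for log odds). For Col1a2 over Col1a1 the difference was 2.22-fold (2.03 to 2.44). Col3a1 and Col5a2, by contrast, kept nearly the same proportion, 10.2 in Control and 9.96 in K14/hyal1, for a ratio of 0.973 (0.896 to 1.06). These last genes are neighbours that point at each other on chromosome 1, 24.6 kb apart. Their ratios of 2.69 and 2.76 were close to those of more distant collagens, 2.66 for Col12a1 on chromosome 9 and 2.77 for Col6a3. Other neighbouring pairs kept their proportions less closely, at 1.29 for Col4a1 over Col4a2, 1.42 for Col4a5 over Col4a6 and 0.845 for Col6a2 over Col6a1. The part of gene position was not tested. The chains of type V were less fixed, since Col5a2 over Col5a1 was 0.733 in Control and 1.15 in K14/hyal1.

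**Figure D2:**
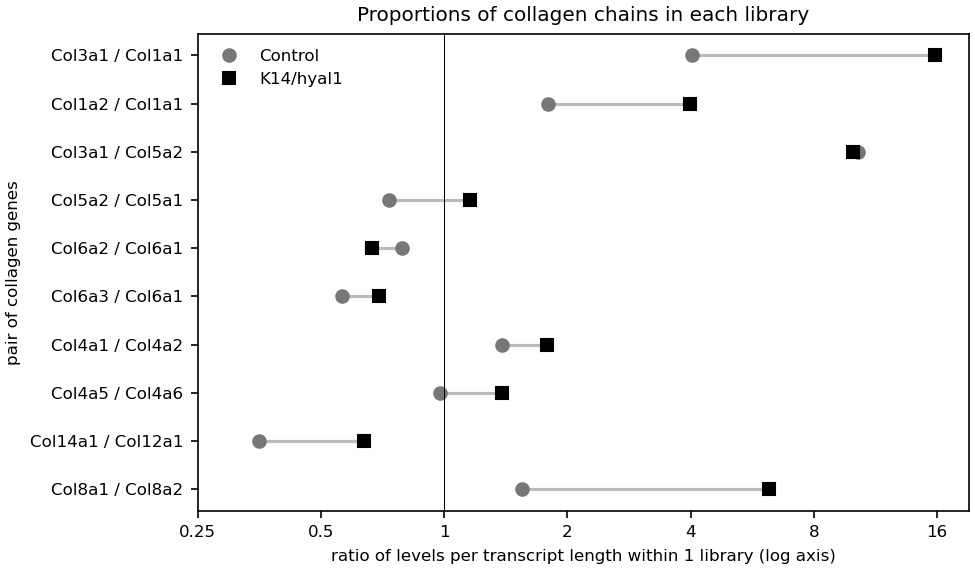
Ratio of 2 collagen genes within 1 library, per length of transcript, on a log axis; grey circles are the Control library, black squares the K14/hyal1 library, and the line joins them. Col3a1 over Col5a2 lies at 10.2 and 9.96, while Col3a1 over Col1a1 moves from 4.02 to 15.8 and Col8a1 over Col8a2 from 1.55 to 6.21.

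The FACIT class had the highest median log2 ratio of the 4 classes, 1.38, from only 3 of 8 genes past the filter. With no filter its median was 0.038, the lowest of the 4 and below the 0.059 of all genes in that setting. It summed to 39.2 CPM in Control against 97.6 CPM in K14/hyal1, for a ratio of 2.49 (2.36 to 2.63). Col14a1, which binds the surface of fibrils and has the proteoglycan decorin among its partners, was at 4.35 CPM (3.85 to 4.91) in Control against 21.02 CPM (19.4 to 22.8) in K14/hyal1. Its ratio of 4.83 (4.17 to 5.60) was the highest among the 23 collagens, and its 4 transcript rows had ratios between 4.13 and 5.61. Col12a1, a large FACIT chain of tissues under tension, was at 25.05 CPM in Control against 66.7 CPM in K14/hyal1, for a ratio of 2.66 (2.49 to 2.85). Col16a1, a FACIT chain with many short helices, was at 7.87 and 8.65 CPM, a ratio of 1.10 (0.939 to 1.28). Its log2 ratio of 0.12 was below the median gene and became -0.09 with that gene as reference.

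Of the basement membrane genes past the filter 0 of 6 reached 2-fold, where 3.75% of all genes were higher and 1.54% lower. With so few genes, that count does not set the class apart. Its median log2 ratio of 0.57 was the lowest of the 4 classes. With no filter the median was 0.49, the highest of the 4, so the order of the classes rests on the filter. It summed to 175 CPM in Control against 270.2 CPM in K14/hyal1, for a ratio of 1.54 (1.496 to 1.59). Its part of all collagen RNA was 24.3% in Control and 18.8% in K14/hyal1, and that of type I was 15.2% and 9.17%.

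Col4a1 and Col4a2, which together form the type IV network of nearly every basement membrane, were the main members. Col4a1 was at 81.5 CPM in Control against 141 CPM in K14/hyal1, for a ratio of 1.73 (1.66 to 1.80). Col4a2 was at 57.4 and 77.0 CPM, a ratio of 1.34 (1.27 to 1.42). Per length of transcript the proportion of Col4a1 to Col4a2 was 1.38 in Control and 1.78 in K14/hyal1, a difference of 1.29-fold (1.202 to 1.38). The genes are transcribed away from each other from 1 shared promoter region on chromosome 8, with annotated starts at 11312826 for Col4a1 and 11312805 for Col4a2. The window below is that of Col4a1, shown because both genes start within it and their levels differed by unequal folds. Most of its bases lie past the Col4a2 start, so it holds little of the DNA before that gene. It runs 5′ to 3′ on the minus strand at chr8:11312777-11313076 (RefSeq, GRCm38.p6), from 250 bases before the Col4a1 start to 50 after it. Capitals mark matches, on either strand, to GGGCGG, the core of the Sp1 box, and to CCAAT.
Col4a1: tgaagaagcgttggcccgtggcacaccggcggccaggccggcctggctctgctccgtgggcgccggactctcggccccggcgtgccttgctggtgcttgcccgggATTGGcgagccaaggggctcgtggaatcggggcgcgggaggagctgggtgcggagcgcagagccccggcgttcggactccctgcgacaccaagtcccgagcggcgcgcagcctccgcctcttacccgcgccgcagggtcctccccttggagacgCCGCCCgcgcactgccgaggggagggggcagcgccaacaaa
This Col4a1 window had 1 match to GGGCGG and 1 to CCAAT, and none to TATAAA. The Col4a2 window, at chr8:11312555-11312854 on the plus strand and not shown, had 3, 1 and 0 matches. Promoter windows were found for 34 of the 42 collagens, some with more than 1 start, giving 36 windows. Col1a1, Col5a2, Col12a1 and Col14a1 were among the genes without one. The shares below take no account of the GC content of the windows. GGGCGG on either strand was in 63.9% of the 36 collagen windows and in 35.7% of all 32851 promoter windows of the same length. CCAAT was in 33.3% against 37.4%, and TATAAA in 13.9% against 13.6%. A match describes the letters and does not show that a factor binds.

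Other type IV chains were less abundant. Col4a5 and Col4a6, which form a network around smooth muscle and some epithelia and lie head to head on the X chromosome, gave ratios of 1.58 (1.36 to 1.83) and 1.11 (0.945 to 1.31). Col4a5 was at 6.91 CPM in Control against 10.9 CPM in K14/hyal1, and Col4a6 at 7.18 and 7.99 CPM. The log2 ratio of Col4a6, 0.14, became -0.07 after scaling to the median gene. The basement membrane collagens that carry sugar side chains were both higher. Col15a1 was at 8.12 CPM in Control against 14.7 CPM in K14/hyal1, for a ratio of 1.81 (1.59 to 2.07), and Col18a1, the source of endostatin, at 10.6 and 16.1 CPM, a ratio of 1.52 (1.34 to 1.71).

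Among the remaining classes, type VI collagen, which forms beaded filaments around cells, held most of the RNA. Its 6 chains summed to 154 CPM in Control against 359 CPM in K14/hyal1, for a ratio of 2.34 (2.27 to 2.41). Col6a3, the longest of the classical chains, was at 61.0 CPM in Control against 169 CPM in K14/hyal1, for a ratio of 2.77 (2.66 to 2.90). Col6a1 was at 49.4 and 111 CPM, a ratio of 2.24 (2.13 to 2.36). Col6a2 was at 37.7 and 71.4 CPM, a ratio of 1.90 (1.79 to 2.01). The 3 classical chains were thus all higher in CPM and under the 3 scalings (and lower relative to fibroblast markers), but by unequal amounts. Per length, Col6a2 over Col6a1 was 0.791 in Control and 0.668 in K14/hyal1, and Col6a3 over Col6a1 was 0.562 and 0.695. Col6a1 and Col6a2 lie in tandem on chromosome 10, 85.2 kb apart. Col6a4, a further type VI chain, was at 3.66 CPM in Control against 4.89 CPM in K14/hyal1, for a ratio of 1.34 (1.08 to 1.66).

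The short-chain collagens split. Col8a1, a network chain of vessel walls, was at 6.27 CPM in Control against 18.9 CPM in K14/hyal1, for a ratio of 3.02 (2.64 to 3.45). Col8a2, the related type VIII chain, was at 3.44 and 2.58 CPM, 1.33-fold lower (1.02 to 1.75). Per length the proportion of Col8a1 to Col8a2 was 1.55 in Control and 6.21 in K14/hyal1. Col10a1, known from growth plate cartilage, was at 4.80 CPM in Control against 2.58 CPM in K14/hyal1, 1.86-fold lower (1.44 to 2.42), and it was the lowest of the 23 on the log2 scale at -0.69. The gene overlaps the annotated gene Nt5dc1, and reads from either cannot be told apart here, as no source used here states whether counting used strand. In all, 7 of the 23 genes overlapped another annotated gene.

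**Figure D3:**
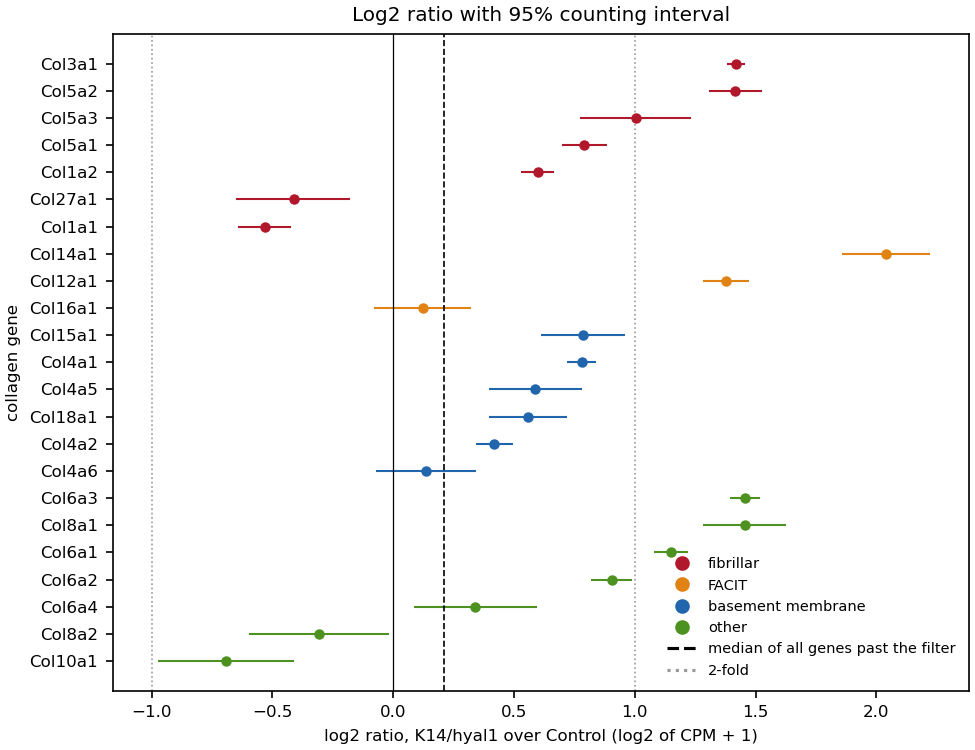
Log2 ratio of K14/hyal1 over Control (log2 of CPM + 1) for the 23 collagens past the filter, by class, with 95% intervals for counting error; the dashed line is the median of all genes past the filter (0.21) and dotted lines mark 2-fold. Col14a1 is highest at 2.04 and Col10a1 lowest at -0.69; Col16a1 and Col4a6 change sign when the libraries are scaled to the median gene, and relative to fibroblast markers only Col14a1 stays above 0.

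The other 19 collagens were below the filter, with 0.0164 to 2.10 CPM in Control and at most 2.62 CPM in K14/hyal1. Of these, 16 had more than 10 reads in a library. The fibrillar ones were Col11a1 (0.900 CPM in Control against 1.03 CPM in K14/hyal1), Col11a2 (0.198 and 0.116 CPM) and Col24a1 (2.04 and 1.41 CPM). Col20a1 (1.199 and 0.517 CPM), Col22a1 (0.196 and 0.276 CPM) and Col9a2 (0.425 and 0.345 CPM) were the FACIT genes. The basement membrane class held Col4a3 (2.10 and 1.21 CPM) and Col4a4 (1.62 and 1.62 CPM), chains best known from the kidney filter.

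Among the low genes of other classes, the transmembrane collagens were Col13a1 (0.192 CPM in Control against 0.393 CPM in K14/hyal1), Col17a1 (2.05 and 1.41 CPM), Col23a1 (1.69 and 2.52 CPM) and Col25a1 (0.851 and 0.896 CPM). Col17a1 anchors basal keratinocytes, and Col7a1, which forms the anchoring fibrils of skin, was at 0.573 and 0.345 CPM. Col28a1 (1.06 and 2.17 CPM), Col6a5 (1.64 and 2.62 CPM) and Col6a6 (0.229 and 0.310 CPM) complete the 16. The rows of Col6a5 went in opposite directions, 1 from 0.853 CPM in Control to 2.45 CPM in K14/hyal1 and 1 from 0.780 to 0.0760 CPM. Col19a1, Col9a3 and Col26a1 had 10 reads or fewer in each library, with 5, 3 and 1 reads in Control, and the last 2 had 0 in K14/hyal1. By counting error, 3 of the 19 had a ratio interval above 1, 4 below 1 and 12 held 1, with no share of all genes to set beside these counts.

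Enzymes that make and handle collagen differed less than the collagens themselves, by their medians. The group that hydroxylates and glycosylates the chains had 11 of 15 genes past the filter, 0 higher and 0 lower at 2-fold, and a median log2 ratio of 0.37. P4hb, a subunit of prolyl hydroxylase, was highest there on the log2(CPM + 1) scale (90.4 CPM in Control against 160.0 CPM in K14/hyal1, for a ratio of 1.77), and P3h2, a prolyl 3-hydroxylase, lowest (3.56 and 3.05 CPM, a ratio of 0.859). The folding and secretion group had 11 of 12 genes past the filter, 0 higher and 1 lower, with a median of 0.13. The lower gene was Creb3l1, a membrane-bound transcription factor of secretory cells known to act on Col1a1 in bone. It was at 39.7 CPM in Control against 6.75 CPM in K14/hyal1, 5.88-fold lower. The Control library also held 1409 CPM of salivary gland genes. The source of the Creb3l1 level and any link to Col1a1 were not tested. In the folding and secretion group, Serpinh1, the collagen chaperone, had a ratio of 1.83 (1.71 to 1.96) and Sparc, a collagen-binding matrix protein, 2.02 (1.92 to 2.11). Both were chosen after their values were seen.

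Genes acting on secreted collagen included single members past 2-fold. The propeptide cleavage group had 6 of 11 genes past the filter, 0 higher and 0 lower, with a median of 0.27. Among these 6, ratios ran from 1.57 for Adamts2, a propeptidase of types I and III, to 0.707 for Furin. Pcolce2 of the same group fell below the filter, at 0.720 CPM in Control against 3.55 CPM in K14/hyal1, for a ratio of 4.93 (3.43 to 7.18). The lysyl oxidase group, which cross-links fibrils, had 6 of 7 genes past the filter and a median of 0.74, with 1 gene higher: Lox, at 2.49 CPM in Control against 9.30 CPM in K14/hyal1, for a ratio of 3.74 (3.05 to 4.59). The collagen receptors had 11 of 13 genes past the filter and a median of 0.60, and 1 was higher, the uptake receptor Mrc2, at 3.37 and 8.48 CPM. The collagen cleavage group had 5 of 13 genes past the filter and a median of 0.71, and 1 was higher, the collagenolytic protease Ctsk, at 1.21 and 3.86 CPM. No gene past the filter in these 4 groups was 2-fold lower. Fmod of the lysyl oxidase group fell below the filter, at 1.69 CPM in Control against 0.724 CPM in K14/hyal1. Its ratio was 0.429 (0.255 to 0.691).

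Fibroblast markers differed more than the collagens by their median. All 12 passed the filter, 10 were at least 2-fold higher (Pdgfra, Dcn, Lum, Dpt, Pi16, Cd34, Mfap5, Clec3b, Gsn and Pdpn), and their median log2 ratio was 1.51. They summed to 262 CPM in Control against 813 CPM in K14/hyal1, for a ratio of 3.11. Set against that sum, 22 of the 23 collagens were lower in K14/hyal1, with a median of -0.81 and 8 of them at least 2-fold lower. Col14a1 alone was above 0, at 0.54. Against the same sum, 8942 of all 13561 genes were at least 2-fold lower and 36 higher, with a median of -1.16. Per length, Col1a1 was at 0.234 of the level of Dcn, the gene of decorin, in Control and at 0.0429 in K14/hyal1, and Col3a1 at 0.942 and 0.678. The part of fibroblast content in the collagen differences was not tested.

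Markers of other cell types differed by unequal amounts. With the salivary gland genes given above set aside, counts at 2-fold ran from 0 to 5 of 6 lymphatic endothelial genes. Smooth muscle markers had a median of 0.20 (10 of 10 past the filter, 0 at 2-fold, summing to 3132 and 3691 CPM, from Actg2 at 0.58 to Myocd at -0.08), close to the median gene. Pericyte markers had 0.24 (6 of 8 past the filter, 0 at 2-fold, summing to 149.8 and 185 CPM, from Kcnj8 to Notch3) and epithelial markers 0.02 (8 of 8, 0 at 2-fold, from Krt18 to Krt20). Blood endothelial markers had 0.69 (9 of 10, with Tek higher and Robo4 lowest at -0.25, summing to 47.98 and 82.0 CPM). Lymphatic endothelial markers had 1.64 (6 of 6, with Lyve1, Flt4, Ccl21a, Mmrn1 and Reln higher, summing to 18.1 and 86.4 CPM). Prox1, the remaining lymphatic marker, was at 2.42 CPM in Control against 2.31 CPM in K14/hyal1, a log2 ratio of -0.05. Skeletal muscle markers had 0.23 (Ckm and Acta1 of 8, summing to 18.4 and 21.4 CPM).

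Markers of cartilage and skin, the tissues from which some of the low collagens are known, were low, and only 1 of them passed the filter. Of the 3 cartilage markers in the table, Acan and Comp had 3 reads or fewer in each library, and Hapln1, the one past the filter, was higher, at 2.77 and 6.72 CPM. Of 7 skin epidermis markers 0 passed the filter, with Krt1, Ivl and Flg at 3 reads or fewer in each library and Krt14 at 0.507 and 0.517 CPM. The highest of the 7 was Krt10, at 1.41 CPM in Control against 1.14 CPM in K14/hyal1. Of 5 mesothelial markers 0 passed, summing to 0.442 and 0.213 CPM, with Upk3b at 1 read in Control and 0 in K14/hyal1. All 5 salivary markers in the table were lower, as given above. The part of any of these cells in the collagen values was not tested.

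**Figure D4:**
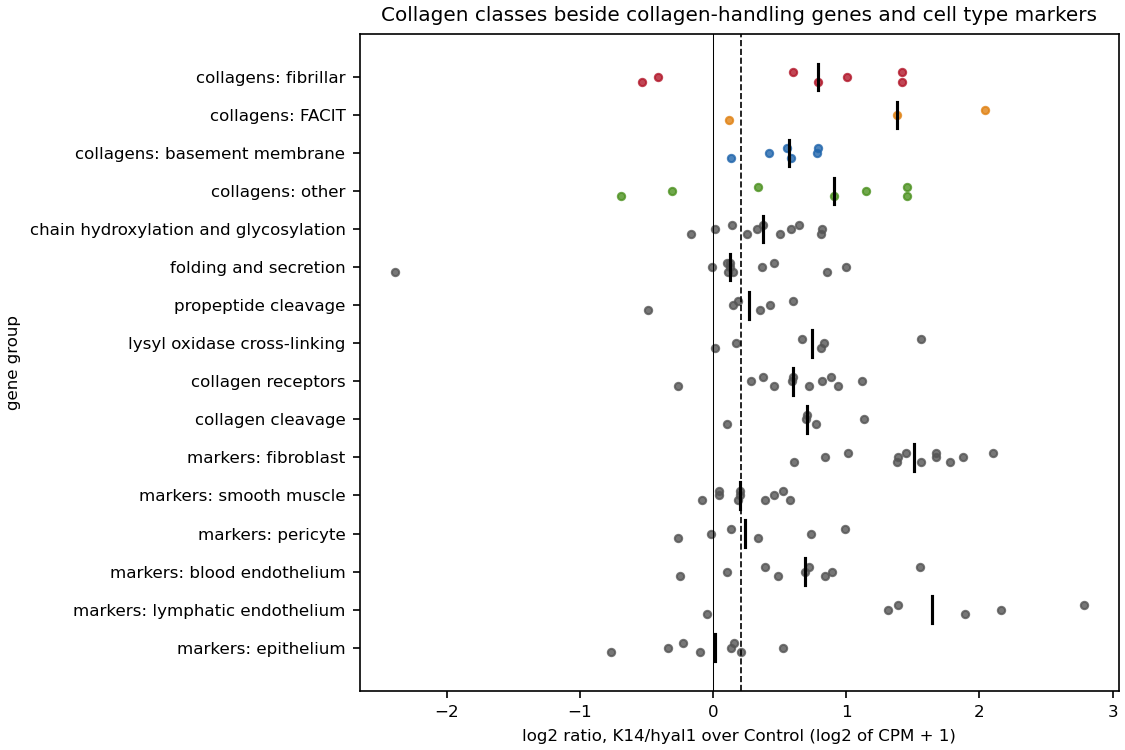
Log2 ratio of K14/hyal1 over Control (log2 of CPM + 1) for each gene past the filter in the 4 collagen classes (coloured), the collagen-handling groups and 6 of the marker lists (grey); short black bars are group medians and the dashed line the median of all genes (0.21). The fibroblast and lymphatic medians (1.51 and 1.64) lie to the right of every collagen class median, the highest of which is FACIT at 1.38.

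The collagen differences varied with the GC content of the transcript. Over the 23 genes, log2 ratio and transcript GC content had a Pearson r of -0.43 and a Spearman rho of -0.40, and over 13175 genes r was -0.12 and rho -0.17. These are descriptions across genes, which share the same 2 libraries and are not independent replicates. The 8 collagens of 56 to 60% GC had a median log2 ratio of 0.78 where all genes of that range had 0.09, the 5 of 52 to 56% had 0.60 against 0.16, and the 5 of 48 to 52% had 1.38 against 0.22. The medians thus did not step down evenly, and the 4 collagens above 60% had 0.49 against 0.03. With the GC trend of all genes taken off, Col1a1 was at -0.37, Col3a1 at 1.46 and Col6a2 at 1.09. At 2-fold, 9 collagens were then higher and 0 lower, beside 511 and 177 of the 13175 genes. The log2 of the mean level and the log2 ratio had a Pearson r of 0.49 over the 23 collagens and -0.0093 over all genes; the mean includes the K14/hyal1 level, so the measures share a value.

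**Figure D5:**
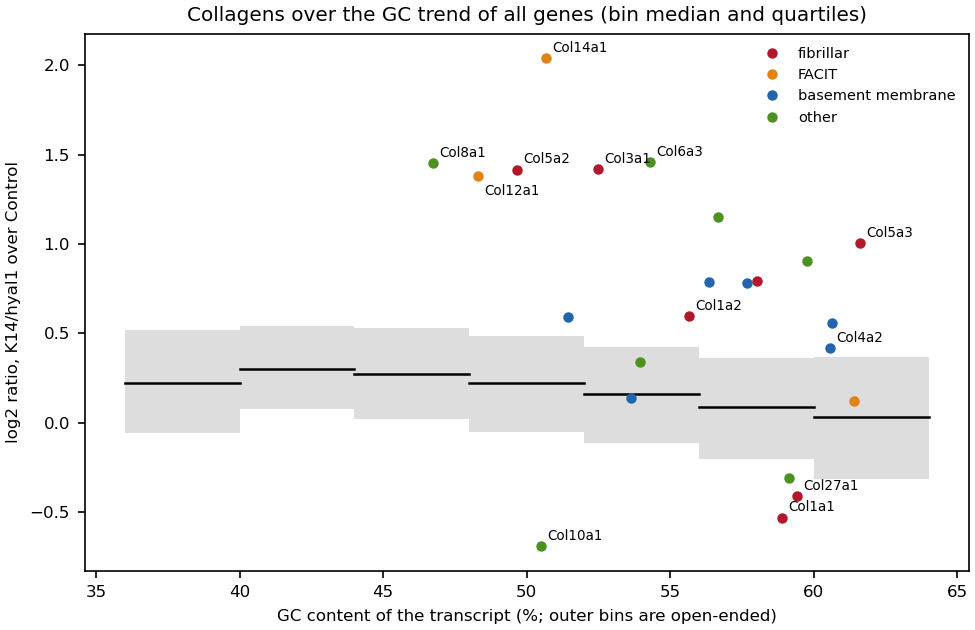
Log2 ratio of K14/hyal1 over Control (log2 of CPM + 1) against the GC content of the transcript for the 23 collagens, by class; black lines and grey boxes are the median and quartiles of all genes in each GC bin. The median of all genes falls from 0.30 at 40 to 44% to 0.03 above 60%, and Col1a1, Col27a1, Col8a2 and Col10a1 lie below the quartile box of their bin.

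The authors' deposited table of genes lists 27 collagens, including all 23 past the filter, with levels within 0.716% of the summed rows. In the authors' deposited table, 6 collagens have a false discovery rate of at most 0.05, all with a ratio above 1: Col3a1 (1.58e-23), Col6a3 (2.40e-09), Col6a1 (0.000286), Col12a1 (0.00264), Col4a1 (0.00652) and Col5a2 (0.0117). The authors' deposited table gives 0.0999 for Col14a1, 0.199 for Col1a2 and 0.9998 for Col1a1, and has 359 of 15867 genes (2.26%) at or below 0.05. No source used here states the model behind these values, and with 1 library per group they cannot speak for a spread between animals.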

How the data were processed

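Poly(A)-selected RNA of 2 mouse colon libraries was sequenced on an Illumina HiSeq with a stranded kit, per the labels' protocols. The submitters' processing notes name Partek and mm10, and no aligner, counting rule, annotation, strand setting or version was found in the sources used here. The deposited transcript values, headed as normalized counts, were read as CPM because low values were multiples of 1 step in each library above an offset of 0.0001, which was taken off. Gene values of at most 300 reads were whole within 0.1 for 81.6% (Control) and 82.9% (K14/hyal1), and for 31 and 37 of 42 collagens, so reads are estimates and count tests were not used. A further table deposited by the authors lists genes with least-squares mean CPM, a ratio, and step-up false discovery rates, per the file headers a form of adjusted p-value. A table headed as fold changes on the transcriptome and a sheet on skin were not used here.

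Rows were summed by symbol. Differences are log2((K14/hyal1 + 1)/(Control + 1)); folds in the text are plain ratios. A gene passed the filter at a mean of at least 2.31 CPM, the median of the 27122 symbols above 0, and was called higher or lower from 2-fold on that scale. Intervals are exact Poisson (levels) and Clopper-Pearson (ratios). GENCODE M21 gave lengths and positions for 95.9% of symbols. The classes, members and gene lists were chosen with earlier results of these data known. Every collagen past the filter was named, those below it singly where a library had over 10 reads, and in other lists each member at least 2-fold different, else the highest and lowest. The result of 1 marker list is not reported here. Alternatives were other pseudocounts, filters, thresholds, scalings and members, the gene table, the fibroblast reference, and GC or length trends taken off by a running median over 501 genes. Scripts (Python 3.11.15 with matplotlib 3.10.9, scipy 1.17.1, numpy 2.4.6 and pandas 2.3.3) were checked on simulated data.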

Additional observations from a re-analysis of the deposited data

How the results depend on the processing

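No paired analysis was possible because each group has 1 library, and for the same reason no library could be left out. Under every alternative but one, the medians of all collagens and of the 4 classes kept their sign, and the cause of the shifts was not tested. The exception is the level relative to the summed fibroblast markers, where the medians were -0.81 (all), -0.79 (fibrillar), -0.21 (FACIT), -0.87 (basement membrane) and -0.69 (other). There the summed ratio was 0.641, and 0 collagens were 2-fold higher and 8 lower, beside 36 and 8942 of all 13561 genes. Against that reference Col12a1 was at -0.21, Col3a1 at -0.21, Col5a2 at -0.16, Col5a3 at -0.33, Col6a1 at -0.46, Col6a3 at -0.16 and Col8a1 at -0.037; the median over all genes was -1.16. In the order all, fibrillar, FACIT, basement membrane and other, the medians were 0.45, 0.54, 1.11, 0.35 and 0.77 with a pseudocount of 10, and 0.55, 0.56, 1.15, 0.36 and 0.67 scaled to the median gene (summed ratio 1.70). TMM scaling gave 0.59 (all), 0.60 (fibrillar), 1.19 (FACIT) and 0.72 (other), with a summed ratio of 1.75. Totals without the 20 most abundant genes gave 0.63 (fibrillar), 1.22 (FACIT) and 0.74 (other), with a summed ratio of 1.78. With no filter the medians were 0.18 (all), 0.35 (fibrillar), 0.038 (FACIT), 0.49 (basement membrane) and 0.28 (other), since many low collagens enter. The median of all genes was then 0.059, so the FACIT class lay below it. With the filter at 10 CPM the collagen medians were 0.90 (all), 1.71 (FACIT) and 1.30 (other). Without the most abundant member the summed ratio was 1.80 and the medians 0.69 (fibrillar), 1.08 (FACIT) and 0.62 (other). With the length trend taken off the medians were 0.84 (all) and 1.49 (FACIT), and with the GC trend taken off 0.86 (all), 0.92 (fibrillar) and 1.09 (other). At 1.5-fold, 14 collagens were higher and 1 lower, beside 17.7% and 4.89% of all genes. The type VI chains alone had a median of 1.03, and the fibrillar class without Col1a1, an alternative chosen after seeing the data, 0.90. Of 245 values of single collagens under the alternatives, 151 stayed within their counting interval, and 24 changed sign: 18 relative to fibroblast markers, and Col16a1 and Col4a6 under each of the 3 scalings. Depth limits the 19 low collagens most: at 10 reads or fewer in each library, Col19a1, Col9a3 and Col26a1 allow no statement on a difference.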
